A study of Mus musculus with 10 samples.

Results

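Cells make cholesterol from acetyl-CoA through mevalonate and squalene, and fatty acids from the same acetyl-CoA through malonyl-CoA. The enzymes of both routes are transcribed under SREBP factors, which are held in the endoplasmic reticulum by Scap and the Insig proteins while sterols are plentiful and are released to the nucleus when sterols run low. Surplus sterol acts in the other direction through LXR, a receptor for oxidised sterols that raises exporters such as Abca1 and Abcg1, and fibroblasts are the cells in which much of this feedback was first described.

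The genes followed here are 37 named members of these routes, and 36 of them had a probeset of their own. Each gene was read from the probeset that carried its symbol alone and had the highest mean over all arrays. They stand among 19938 genes with such a probeset and 35557 probesets in all, and Acat2, an acetyl-CoA thiolase, is not analysed here. By role, 6 of 7 listed genes of the mevalonate steps, 12 of 12 from squalene to cholesterol, 5 of 5 of SREBP control, 8 of 8 of fatty acid synthesis and 5 of 5 of sterol transport and the LXR targets were measured.

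RNA came from wild type mouse embryonic fibroblasts (MEFs), the usual feeder cells of leukemia co-culture, which had been irradiated so that they no longer divide. All dishes were kept for 9 days in medium with IL-3, and 1 Affymetrix Mouse Gene 1.0 ST array was run per dish. MEFs + DMSO received the solvent and MEFs + nilotinib 16 nM of nilotinib, an inhibitor of the Abl kinase, with 3 arrays each. MEFs + ALL + nilotinib (3 arrays) and MEFs + ALL + DMSO (1 array) also had 8093 cells, an acute lymphoblastic leukemia line of a Bcr/Abl transgenic mouse that the labels call preB and the methods pro-B, on the far side of a Transwell membrane, with the drug or the solvent. The methods state that the other dishes of MEFs + ALL + DMSO were left out because ALL cells had got into them, and that triplicates were dishes plated from MEFs, so the spread between arrays is that of dishes. Values are log2 signals, on which 1 unit is a doubling, and in bulk RNA fewer cells of a type cannot be told apart from less RNA per cell.

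The MEFs + ALL + DMSO array stood apart from the other 9. On the first principal component of all probesets it scored 66.9, against -22.6 to 9.13 for the rest. Markers of fibroblasts were high in every array, with array means of 12.1 to 12.3 over 10 genes. Macrophage markers were read in every array too, with array means of 8.82 to 9.17 over 7 genes. Their gene means ran from 7.67 for Itgam to 11.98 for Lyz2, at percentiles 60.4 and 98.0 of all probesets. Leukocyte markers had array means of 7.96 to 8.22 in the other 9 arrays. Whether such cells were present in the layer was not tested. The MEFs + ALL + DMSO array was compared with MEFs + DMSO by limma at an adjusted p under 0.05. In it 8 of 10 pro-B and B cell markers, 8 of 8 leukocyte markers and 7 of 7 dividing-cell markers were called higher. Of all probesets 6.67% were called higher in this array. The mean of the pro-B and B cell markers was 8.05 there, against 5.94 to 6.21 in the other arrays. For the dividing-cell markers it was 9.84, against 6.86 to 7.24 elsewhere. Igll1, the surrogate light chain of early B cells, read 11.08 in it and 6.33 to 6.99 elsewhere, while Rag2 and Blnk lay within the range of the other arrays. Among the fibroblast markers 8 of 10 were below 0 in this array against MEFs + DMSO, where 41.1% of all probesets were above 0. Col1a2 was called lower (-0.66, adjusted p = 0.0419), and Thy1 (0.59) and Lum (0.65) were called higher. Of 5 adipocyte markers Fabp4 was called higher (0.40). Each result that rests on this array stands beside these values, and their part in the results was not tested. Between MEFs + ALL + nilotinib and MEFs + DMSO, 0 of the pro-B, leukocyte, macrophage, adipocyte and dividing-cell markers were called. The fibroblast marker Thy1 was called higher, and 0.627% of all probesets were called in that comparison.

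**Figure D1:**
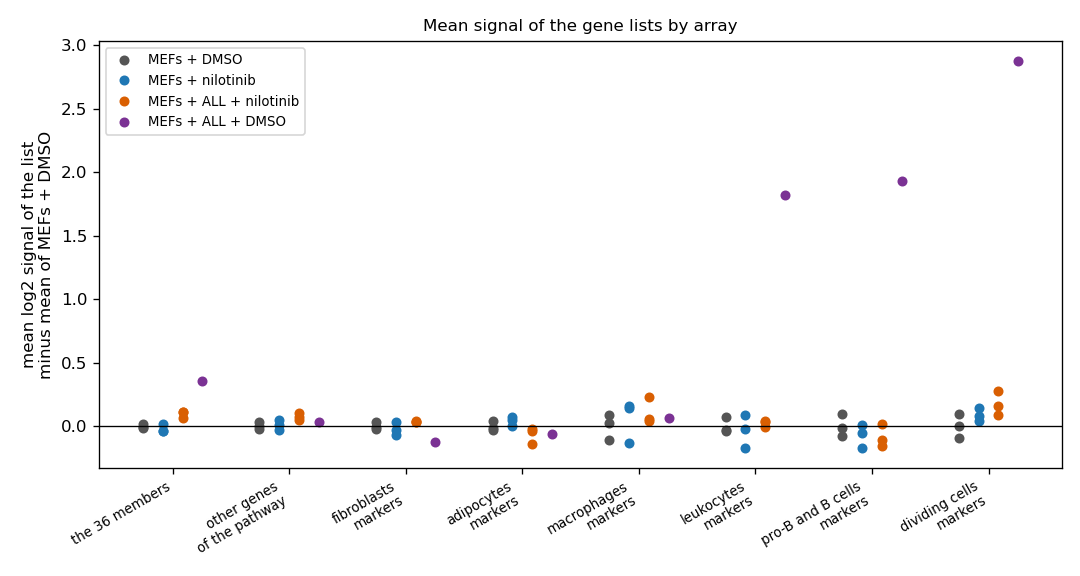
Mean log2 signal of each gene list in each array (points), less the mean of the 3 MEFs + DMSO arrays, coloured by group. The MEFs + ALL + DMSO array lies far above the other arrays in leukocyte, pro-B and B cell and dividing-cell markers, and above them by less in the 36 members.

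SREBP binds sterol regulatory elements and commonly works beside NF-Y, which binds CCAAT boxes, so the promoters were searched for 3 short motifs. RefSeq windows of GRCm38.p6, from 250 bases before a start site through the first 50 bases of the gene, were at hand for 28 of the 37 listed genes. On either strand CCAAT was found in 22 of these 28 genes, against 41.1% of 27025 genes with a window and 41.7% of the 15614 of them that the arrays name. It was present in 10 of 10 genes from squalene to cholesterol and in 5 of 6 of the mevalonate steps, but in 2 of 5 of fatty acid synthesis. The palindrome CACGTG, an E-box that SREBP and other factors can bind, was found in 6 of 28 genes against 8.09% of all. TCACNCCAC, the core of the classical sterol regulatory element, was found in 1 of 28, Hmgcs1, against 1.44% of all. A gene with several windows counts once, as a match if any of its windows matched, and gene families enter these shares as they are. No motif contains another, each was searched on its own, and a match is a run of letters in this window only.

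The 4 windows shown are those of Hmgcs1 (chr13:119690101-119690400, plus strand), which holds the sterol element; of Insig1 (chr5:28071162-28071461, plus strand), the feedback gene of the pathway; of Lbr (chr1:181842352-181842651, minus strand), the member that differed most between arrays; and of Abca1 (chr4:53159846-53160145, minus strand), an LXR target with no CCAAT. They run 5′ to 3′ on the gene's strand, and capitals mark TCACNCCAC, CCAAT and CACGTG or their complements:
Hmgcs1: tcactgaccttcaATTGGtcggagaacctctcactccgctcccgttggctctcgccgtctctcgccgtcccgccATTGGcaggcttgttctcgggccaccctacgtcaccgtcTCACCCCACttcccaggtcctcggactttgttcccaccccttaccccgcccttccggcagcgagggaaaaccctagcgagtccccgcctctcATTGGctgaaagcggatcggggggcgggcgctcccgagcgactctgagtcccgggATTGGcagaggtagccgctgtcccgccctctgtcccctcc
Insig1: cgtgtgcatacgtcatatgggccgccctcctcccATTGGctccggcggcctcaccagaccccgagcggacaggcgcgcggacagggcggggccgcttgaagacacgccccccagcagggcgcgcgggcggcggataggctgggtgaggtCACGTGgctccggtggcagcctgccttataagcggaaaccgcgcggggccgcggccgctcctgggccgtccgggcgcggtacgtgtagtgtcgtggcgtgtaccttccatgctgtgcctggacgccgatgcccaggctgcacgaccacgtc
Lbr: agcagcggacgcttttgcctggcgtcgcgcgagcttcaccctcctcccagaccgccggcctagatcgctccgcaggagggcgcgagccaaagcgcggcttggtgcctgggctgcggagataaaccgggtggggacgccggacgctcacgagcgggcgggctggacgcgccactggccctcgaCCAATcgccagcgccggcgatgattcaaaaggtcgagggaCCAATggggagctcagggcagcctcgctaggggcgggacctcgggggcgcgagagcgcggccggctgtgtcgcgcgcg
Abca1: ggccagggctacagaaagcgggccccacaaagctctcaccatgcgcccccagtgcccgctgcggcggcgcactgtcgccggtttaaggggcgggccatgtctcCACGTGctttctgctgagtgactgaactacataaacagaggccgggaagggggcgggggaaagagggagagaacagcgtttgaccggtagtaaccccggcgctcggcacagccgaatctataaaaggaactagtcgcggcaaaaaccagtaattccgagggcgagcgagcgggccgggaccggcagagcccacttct

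Counted from the start site, the sterol element of Hmgcs1 begins at -137 and lies between CCAAT boxes read from the other strand at -176 and -45. Insig1 has 1 CCAAT box and 1 E-box, Lbr has CCAAT boxes at -68 and -28, and Abca1 holds the E-box alone.

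The study asked whether drug-treated ALL cells change the fibroblasts beside them. In MEFs + ALL + nilotinib over MEFs + DMSO most members read slightly higher, and Scd1, the delta-9 desaturase that makes oleate, was the only one called. The 36 members had a median log2 difference of 0.08, against -0.004 over all probesets, and 30 were above 0, where 49.0% of all probesets were. The call rate was 1 member of 36, against 0.627% of all probesets (0.503% called higher and 0.124% lower), and 11 members had an unadjusted p under 0.05, where 16.2% of probesets had one. For 15 members all 3 MEFs + ALL + nilotinib arrays lay above all 3 MEFs + DMSO arrays, and for 3 they lay below, against 14.1% and 10.6% of probesets. All 36 members were brighter than the median probeset. Among the 17779 probesets at or above it the difference had a median of 0.03 with 56.1% above 0. In a fit of these alone 24.9% had an unadjusted p under 0.05 and 5.19% were called. That fit called 5 members, Cyp51, Insig1, Nsdhl, Scd1 and Stard4.

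Nilotinib alone moved no member past the threshold. In MEFs + nilotinib over MEFs + DMSO the median was -0.01, 16 members were above 0 and 20 below, and limma called 0 members and 0 probesets (0% of all). At an unadjusted p under 0.05 there were 4 members, Acaca, Lss, Scd1 and Abcg1, where 11.2% of probesets passed. All 3 nilotinib arrays lay above MEFs + DMSO for 9 members and below for 3, against 13.6% and 7.05% of probesets. With the drug held the same, in MEFs + ALL + nilotinib over MEFs + nilotinib, 33 of 36 members were above 0 with a median of 0.12, against 48.0% and -0.007 for all probesets. None of the members was called by limma, against 0.186% of probesets (0.149% higher and 0.0366% lower), and 8 had an unadjusted p under 0.05, where 9.27% of probesets did. For 10 members all 3 arrays lay above MEFs + nilotinib and for 0 below, against 7.8% and 6.62% of probesets. These comparisons share arrays with each other, so their values are given side by side and not as separate support.

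**Figure D2:**
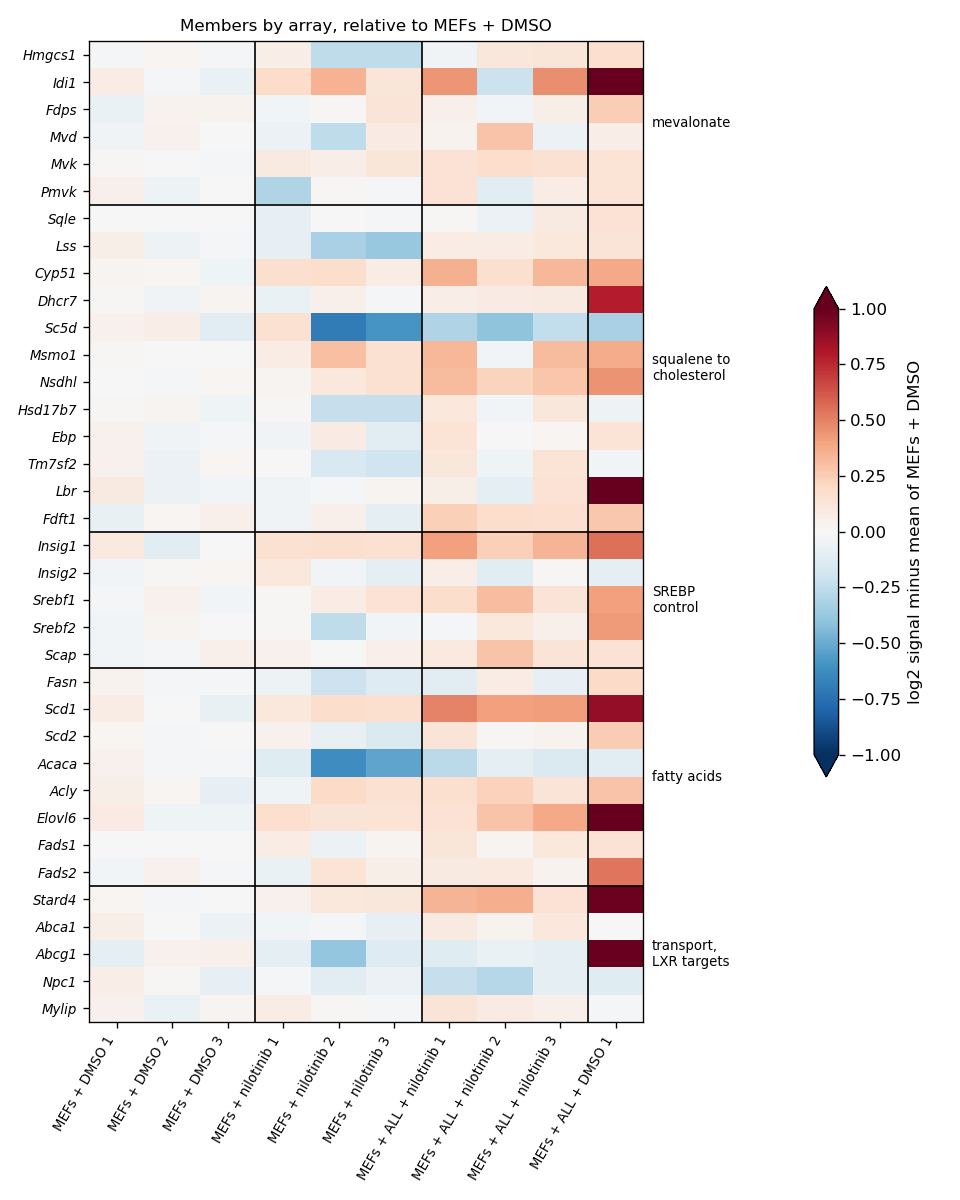
Log2 signal of the 36 members (rows, by role) in the 10 arrays (columns), less the mean of MEFs + DMSO; the colour scale ends at 1 in either direction. Red fills most of the MEFs + ALL + DMSO column and pale red most of the 3 MEFs + ALL + nilotinib columns, while Sc5d and Acaca are bluest in replicates 2 and 3 of MEFs + nilotinib.

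The members that differed most did so in the MEFs + ALL + DMSO array. Against MEFs + DMSO, 13 of 36 members were called higher and 0 lower, where 6.67% of probesets were called higher, 3.59% lower and 10.3% either way. In the fit without dim probesets 14 members were called higher, the 13 and Fdft1, beside 14.1% of the brighter probesets called higher and 22.4% either way. The 13 were Lbr, Idi1, Elovl6, Abcg1, Stard4, Scd1, Dhcr7, Insig1, Fads2, Nsdhl, Srebf2, Srebf1 and Cyp51, from 1.90 down to 0.38 on the log2 scale. The median member differed by 0.22 (0.12 after quantile normalization), against -0.07 for all probesets and 0.01 for the brighter ones. In this array 24 of 36 members had their highest value of all 10 arrays and 0 their lowest, and 15.7% of probesets had their highest value there. The test had 1 array on this side, whose spread is assumed to be that of the other groups.

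Cyp51, Srebf1 and Srebf2 were near the threshold in that comparison. The Cyp51 call held in 1 of 9 fits that left out an array, the one without MEFs + ALL + nilotinib replicate 2, and in the other 8 the adjusted p was 0.0603 to 0.114. For Srebf1 the call was lost without any MEFs + DMSO array, without MEFs + nilotinib replicate 2 and without MEFs + ALL + nilotinib replicate 1, at adjusted p of 0.052 to 0.0872. For Srebf2 it was lost without any MEFs + DMSO array, without MEFs + nilotinib replicate 3 and without MEFs + ALL + nilotinib replicate 1 or 3, at 0.0659 to 0.104. The other 10 members were called in all 9 of these fits.

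Comparing MEFs + ALL + nilotinib with MEFs + ALL + DMSO, 8 members were called lower, Lbr, Abcg1, Idi1, Elovl6, Dhcr7, Stard4, Fads2 and Scd1, and 0 higher, against 3.76% of probesets lower and 4.34% either way. Without dim probesets the same 8 were called, beside 5.84% of probesets lower and 7.81% either way. Lbr, Abcg1, Elovl6, Dhcr7 and Stard4 stayed called when any 1 of 9 arrays was left out. Idi1 was lost without any of the 6 arrays of MEFs alone, at adjusted p of 0.0673 to 0.0811. Fads2 was lost without any MEFs + DMSO array, without MEFs + nilotinib replicate 3 or without MEFs + ALL + nilotinib replicate 1 or 3, at 0.0621 to 0.0908. Scd1 was lost without MEFs + DMSO replicate 2, MEFs + nilotinib replicate 3 or MEFs + ALL + nilotinib replicate 2 or 3, at 0.0502 to 0.082.

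The difference between dishes with and without ALL cells was itself tested between the drug and the solvent. It was smaller under nilotinib for 6 members, Lbr, Abcg1, Elovl6, Stard4, Dhcr7 and Scd1, against 3.55% of probesets called lower in this test and 3.95% either way. Without dim probesets Idi1 and Fads2 were called as well, beside 6.63% of probesets lower and 8.31% either way. All of these tests rest on the 1 MEFs + ALL + DMSO array, in which the pro-B, leukocyte and dividing-cell markers were called higher.

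In the mevalonate steps, the early part of sterol and isoprenoid synthesis, 6 of 6 members were above 0 in MEFs + ALL + nilotinib over MEFs + DMSO and 0 were called, with differences of 0.03 to 0.23. Beside them 49.0% of all probesets and 56.1% of the brighter ones were above 0, and 0.627% of all were called. Hmgcs1, which makes HMG-CoA, read 9.60, 9.63 and 9.60 in MEFs + DMSO, 9.68, 9.35 and 9.36 in MEFs + nilotinib, 9.58, 9.72 and 9.73 in MEFs + ALL + nilotinib and 9.78 in MEFs + ALL + DMSO. MEFs + DMSO and MEFs + ALL + nilotinib overlapped, and replicate 1 of MEFs + nilotinib stood above its fellows. The difference of MEFs + ALL + nilotinib from MEFs + DMSO was 0.07 (SE 0.10, n = 3 and 3, adjusted p = 0.775).

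Idi1 converts isopentenyl diphosphate to its reactive isomer. It read 9.18, 9.10 and 9.04 in MEFs + DMSO, 9.29, 9.45 and 9.22 in MEFs + nilotinib, 9.55, 8.89 and 9.57 in MEFs + ALL + nilotinib and 10.42 in MEFs + ALL + DMSO. All 3 nilotinib arrays lay above the solvent arrays, whereas replicate 2 of MEFs + ALL + nilotinib lay below them. The differences from MEFs + DMSO were 0.22 with nilotinib and 0.23 with ALL cells and nilotinib (both SE 0.17), neither called, and 1.32 in the MEFs + ALL + DMSO array (SE 0.24, adjusted p = 0.012), a fold of 2.49. The Idi1 difference with ALL cells and nilotinib was 0.46 without MEFs + ALL + nilotinib replicate 2, 0.13 without replicate 1 and 0.11 without replicate 3. Mvk, mevalonate kinase, had the smallest spread of all members, with a pooled SD of 0.02, and its 3 MEFs + ALL + nilotinib arrays all lay above MEFs + DMSO at a difference of 0.16 (SE 0.05, adjusted p = 0.199).

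From squalene to cholesterol, 11 of 12 members were above 0 in MEFs + ALL + nilotinib over MEFs + DMSO and 0 were called. The shares of all probesets were 49.0% above 0 (56.1% of the brighter ones) and 0.627% called. Sqle, squalene epoxidase, a rate-limiting enzyme of this stretch, read 9.93, 9.92 and 9.93 in MEFs + DMSO, 9.84, 9.93 and 9.91 in MEFs + nilotinib, 9.95, 9.87 and 10.02 in MEFs + ALL + nilotinib and 10.07 in MEFs + ALL + DMSO. Its groups overlapped, and the difference was 0.02 (95% interval -0.12 to 0.16).

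Cyp51, the lanosterol demethylase, and Nsdhl, which acts a few steps later, had the largest differences above 0 of these members with ALL cells and nilotinib. Cyp51 read 8.96, 8.96 and 8.89 in MEFs + DMSO, 9.09, 9.11 and 9.01 in MEFs + nilotinib, 9.29, 9.09 and 9.26 in MEFs + ALL + nilotinib and 9.31 in MEFs + ALL + DMSO. Every array of the other groups lay above the 3 solvent arrays. The difference with ALL cells and nilotinib was 0.28 (SE 0.07, adjusted p = 0.124) and that in the MEFs + ALL + DMSO array 0.38 (SE 0.10, adjusted p = 0.0489). Nsdhl read 8.73, 8.72 and 8.75 in MEFs + DMSO, 8.77, 8.84 and 8.88 in MEFs + nilotinib, 9.05, 8.96 and 9.01 in MEFs + ALL + nilotinib and 9.19 in MEFs + ALL + DMSO. These 4 groups did not overlap, although the gap from MEFs + DMSO to MEFs + nilotinib was narrow (8.75 to 8.77). Its differences from MEFs + DMSO were 0.10 with nilotinib (adjusted p = 0.569), 0.27 with ALL cells and nilotinib (SE 0.06, adjusted p = 0.0917) and 0.45 with ALL cells and solvent (SE 0.08, adjusted p = 0.0117).

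Dhcr7 and Lbr were called in the MEFs + ALL + DMSO array. Dhcr7, the last reductase of the route, read 8.14, 8.09 and 8.15 in MEFs + DMSO, 8.06, 8.18 and 8.11 in MEFs + nilotinib, 8.19, 8.21 and 8.22 in MEFs + ALL + nilotinib and 8.92 in MEFs + ALL + DMSO. The 3 MEFs + ALL + nilotinib arrays lay just above MEFs + DMSO and the last array far above. It exceeded MEFs + DMSO by 0.79 (SE 0.08, adjusted p = 0.000447), and MEFs + ALL + nilotinib did by 0.08 (SE 0.06, adjusted p = 0.532). Lbr, a sterol reductase that is also the lamin B receptor of the nuclear membrane, read 9.31, 9.16 and 9.19 in MEFs + DMSO, 9.19, 9.20 and 9.24 in MEFs + nilotinib, 9.28, 9.13 and 9.36 in MEFs + ALL + nilotinib and 11.12 in MEFs + ALL + DMSO. The 9 other arrays overlapped, and the difference in that array was 1.90 (SE 0.11, adjusted p = 1.32e-05), a fold of 3.73. Tm7sf2, which carries out the same reduction as Lbr, differed by -0.03 there (SE 0.11, adjusted p = 0.89).

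Sc5d, the sterol desaturase before Dhcr7, had the widest spread of the members, with a pooled SD of 0.28. It read 9.34, 9.37 and 9.20 in MEFs + DMSO, 9.45, 8.60 and 8.71 in MEFs + nilotinib, 9.00, 8.90 and 9.05 in MEFs + ALL + nilotinib and 8.98 in MEFs + ALL + DMSO. All 3 arrays with ALL cells and nilotinib lay below MEFs + DMSO, at a difference of -0.32 (SE 0.20, adjusted p = 0.47), the lowest of any member. It was called in the test of ALL cells by drug only in the fit without MEFs + nilotinib replicate 1.

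**Figure D3:**
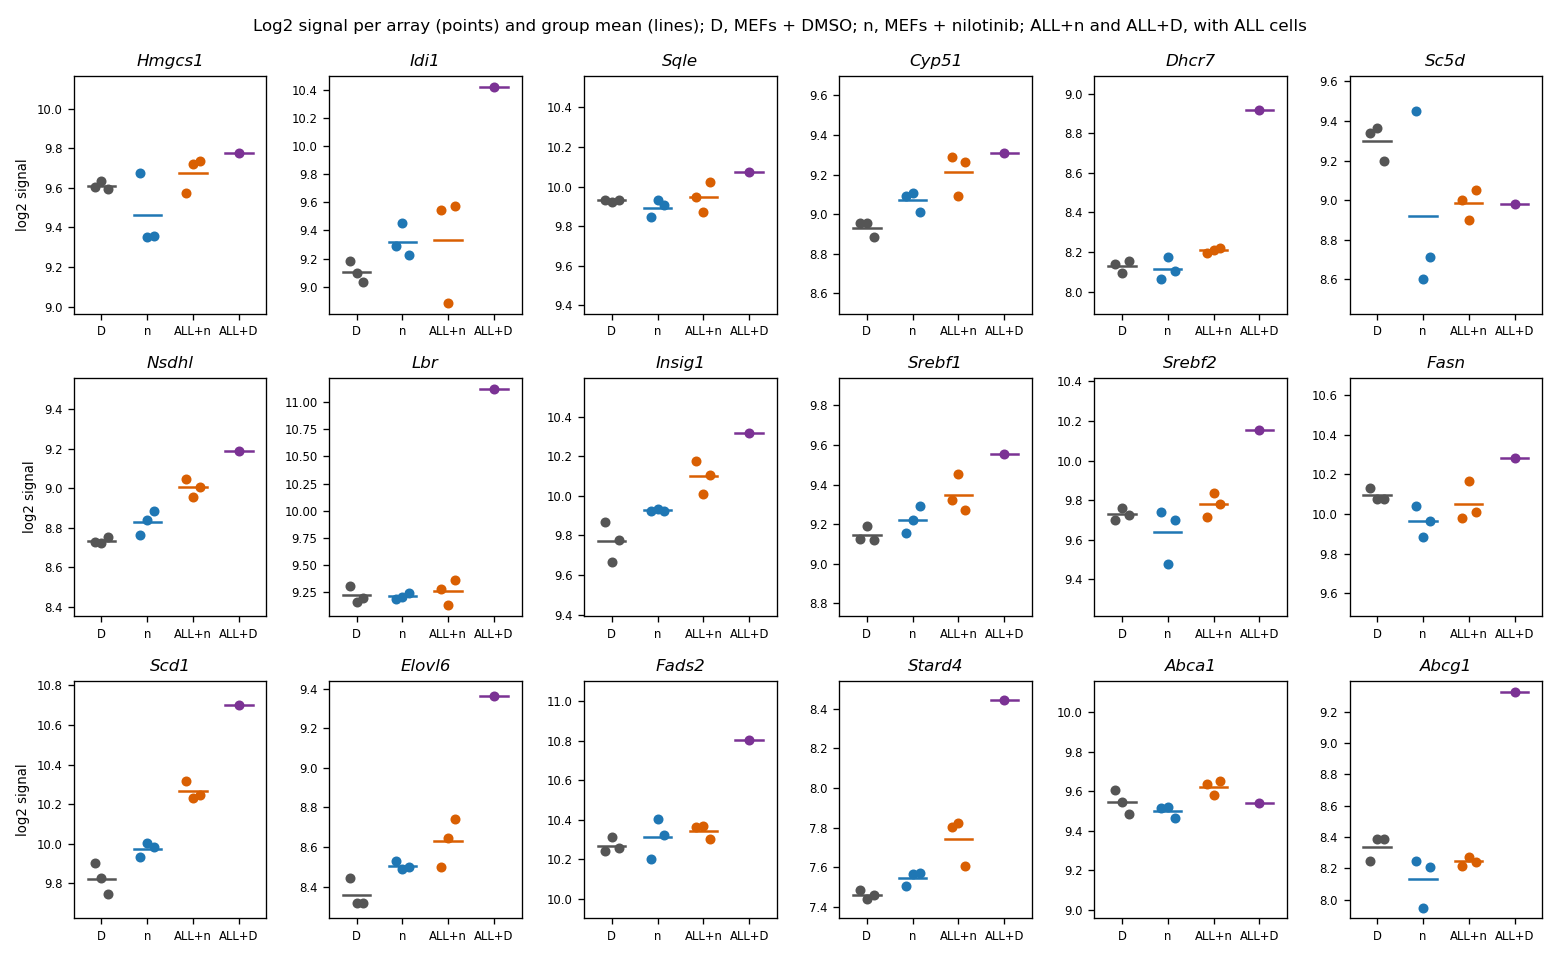
Log2 signal of 18 members in each array (points) and the mean of each group (lines), with MEFs + DMSO (D), MEFs + nilotinib (n), MEFs + ALL + nilotinib (ALL+n) and MEFs + ALL + DMSO (ALL+D) along the x axis; y axes differ in range. Lbr, Dhcr7, Stard4, Elovl6 and Abcg1 are far higher in the 1 ALL+D array than in the other 9, and Scd1, Nsdhl and Insig1 have their ALL+n arrays between the other groups.

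Among the SREBP control genes 4 of 5 were above 0 in MEFs + ALL + nilotinib over MEFs + DMSO, with a median of 0.17 and 0 called. Over all probesets 49.0% were above 0 (56.1% of the brighter ones) and 0.627% were called. Insig1, which retains SREBP in the endoplasmic reticulum and is itself an SREBP target, read 9.87, 9.67 and 9.78 in MEFs + DMSO, 9.92, 9.93 and 9.92 in MEFs + nilotinib, 10.18, 10.01 and 10.11 in MEFs + ALL + nilotinib and 10.32 in MEFs + ALL + DMSO. The 4 groups did not overlap. The differences from MEFs + DMSO were 0.16 (SE 0.07, adjusted p = 0.463), 0.33 (SE 0.07, adjusted p = 0.0952) and 0.55 (SE 0.10, adjusted p = 0.0124) in that order, and the last was called.

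Srebf1 encodes the SREBP that leans to fatty acid genes. It read 9.13, 9.19 and 9.12 in MEFs + DMSO, 9.16, 9.22 and 9.29 in MEFs + nilotinib, 9.32, 9.45 and 9.27 in MEFs + ALL + nilotinib and 9.55 in MEFs + ALL + DMSO. The arrays with ALL cells lay above all MEFs + DMSO arrays, by 0.20 with the drug (SE 0.07, adjusted p = 0.214) and 0.41 with the solvent (SE 0.10, adjusted p = 0.0355). Srebf2, the SREBP of sterol synthesis, read 9.70, 9.76 and 9.73 in MEFs + DMSO, 9.74, 9.48 and 9.70 in MEFs + nilotinib, 9.72, 9.84 and 9.78 in MEFs + ALL + nilotinib and 10.15 in MEFs + ALL + DMSO. Its first 3 groups overlapped. The difference was 0.05 with ALL cells and nilotinib (SE 0.08, adjusted p = 0.801) and 0.43 in the MEFs + ALL + DMSO array (SE 0.11, adjusted p = 0.0488). Insig2, a relative of Insig1, differed by -0.01 and -0.09 in the same comparisons, neither called.

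Of the fatty acid genes 6 of 8 were above 0 in MEFs + ALL + nilotinib over MEFs + DMSO and 1 was called. For all probesets these shares were 49.0% above 0 (56.1% of the brighter ones) and 0.627% called. Scd1 read 9.90, 9.82 and 9.75 in MEFs + DMSO, 9.93, 10.00 and 9.98 in MEFs + nilotinib, 10.32, 10.23 and 10.24 in MEFs + ALL + nilotinib and 10.70 in MEFs + ALL + DMSO. The 4 groups did not overlap, although the gap from MEFs + DMSO to MEFs + nilotinib was narrow. With ALL cells and nilotinib Scd1 rose by 0.44 over MEFs + DMSO (SE 0.06, 95% interval 0.30 to 0.58, adjusted p = 0.0316), a fold of 1.36. Nilotinib alone gave 0.15 (SE 0.06, adjusted p = 0.436) and the MEFs + ALL + DMSO array 0.88 (SE 0.09, adjusted p = 0.000435). The call of 0.44 was kept in 1 of 9 fits that left out an array, the one without MEFs + nilotinib replicate 1 (adjusted p = 0.0431). Without any of the other 8 arrays the adjusted p was 0.053 to 0.138 and the difference 0.40 to 0.48, and it was 0.0813 in a fit of the compared groups only. Leaving out the MEFs + ALL + DMSO array, which adds nothing to the estimate of the spread, gave the same difference and adjusted p (0.0316).

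Fasn, the fatty acid synthase itself, read 10.13, 10.07 and 10.08 in MEFs + DMSO, 10.04, 9.89 and 9.97 in MEFs + nilotinib, 9.98, 10.17 and 10.01 in MEFs + ALL + nilotinib and 10.28 in MEFs + ALL + DMSO. Nilotinib arrays all lay below the solvent arrays, at -0.13 (SE 0.07, adjusted p = 0.529), and the ALL cell arrays with drug overlapped them at -0.04 (SE 0.07, adjusted p = 0.814). Elovl6, which lengthens palmitate to stearate, the substrate of Scd1, read 8.44, 8.32 and 8.32 in MEFs + DMSO, 8.53, 8.49 and 8.50 in MEFs + nilotinib, 8.50, 8.64 and 8.74 in MEFs + ALL + nilotinib and 9.36 in MEFs + ALL + DMSO. All other arrays lay above MEFs + DMSO. The difference was 0.27 with ALL cells and nilotinib (SE 0.08, adjusted p = 0.15) and 1.00 in the MEFs + ALL + DMSO array (SE 0.11, adjusted p = 0.000553).

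Fads2, the delta-6 desaturase of polyunsaturated fatty acids, read 10.24, 10.31 and 10.25 in MEFs + DMSO, 10.20, 10.41 and 10.32 in MEFs + nilotinib, 10.36, 10.37 and 10.30 in MEFs + ALL + nilotinib and 10.80 in MEFs + ALL + DMSO. The first 3 groups overlapped, with a difference of 0.08 for ALL cells and nilotinib (SE 0.07, adjusted p = 0.627), and the last array exceeded MEFs + DMSO by 0.53 (SE 0.10, adjusted p = 0.0108). Fads1 and Scd2, close relatives in function, differed there by 0.14 and 0.25, neither called. Acaca, acetyl-CoA carboxylase, had the largest difference with nilotinib alone, -0.42 (SE 0.12, adjusted p = 0.362).

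Of the transport genes and LXR targets 3 of 5 were above 0 in MEFs + ALL + nilotinib over MEFs + DMSO and 0 were called. Probesets as a whole were above 0 in 49.0% (56.1% of the brighter ones) and called in 0.627%. Stard4, a carrier of cholesterol between membranes and an SREBP target, read 7.48, 7.44 and 7.46 in MEFs + DMSO, 7.50, 7.57 and 7.57 in MEFs + nilotinib, 7.80, 7.82 and 7.61 in MEFs + ALL + nilotinib and 8.44 in MEFs + ALL + DMSO. The 4 groups did not overlap, but the gaps on either side of MEFs + nilotinib were narrow (7.48 to 7.50 and 7.57 to 7.61). The Stard4 difference was 0.28 with ALL cells and nilotinib (SE 0.07, adjusted p = 0.126) and 0.98 with ALL cells and solvent (SE 0.10, adjusted p = 0.000456).

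The LXR targets parted in the MEFs + ALL + DMSO array. Abca1, the exporter of cholesterol to lipid-poor apolipoproteins, read 9.61, 9.55 and 9.48 in MEFs + DMSO, 9.52, 9.52 and 9.47 in MEFs + nilotinib, 9.64, 9.58 and 9.65 in MEFs + ALL + nilotinib and 9.54 in MEFs + ALL + DMSO. Its groups overlapped, and the differences were 0.08 (SE 0.06, adjusted p = 0.562) and -0.003 (95% interval -0.19 to 0.19, adjusted p = 0.987). Abcg1, the exporter to high-density lipoprotein, read 8.24, 8.39 and 8.39 in MEFs + DMSO, 8.25, 7.95 and 8.21 in MEFs + nilotinib, 8.22, 8.28 and 8.24 in MEFs + ALL + nilotinib and 9.33 in MEFs + ALL + DMSO. That array exceeded MEFs + DMSO by 0.99 (SE 0.13, adjusted p = 0.00163), a fold of 1.99, whereas ALL cells with nilotinib differed by -0.10 (SE 0.09, adjusted p = 0.641). Mylip, which degrades the LDL receptor under LXR, differed there by -0.02 and Npc1, which moves cholesterol out of lysosomes, by -0.12, neither called. With ALL cells and nilotinib Npc1 lay below MEFs + DMSO in all 3 arrays, at -0.20 (SE 0.07, adjusted p = 0.239).

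**Figure D4:**
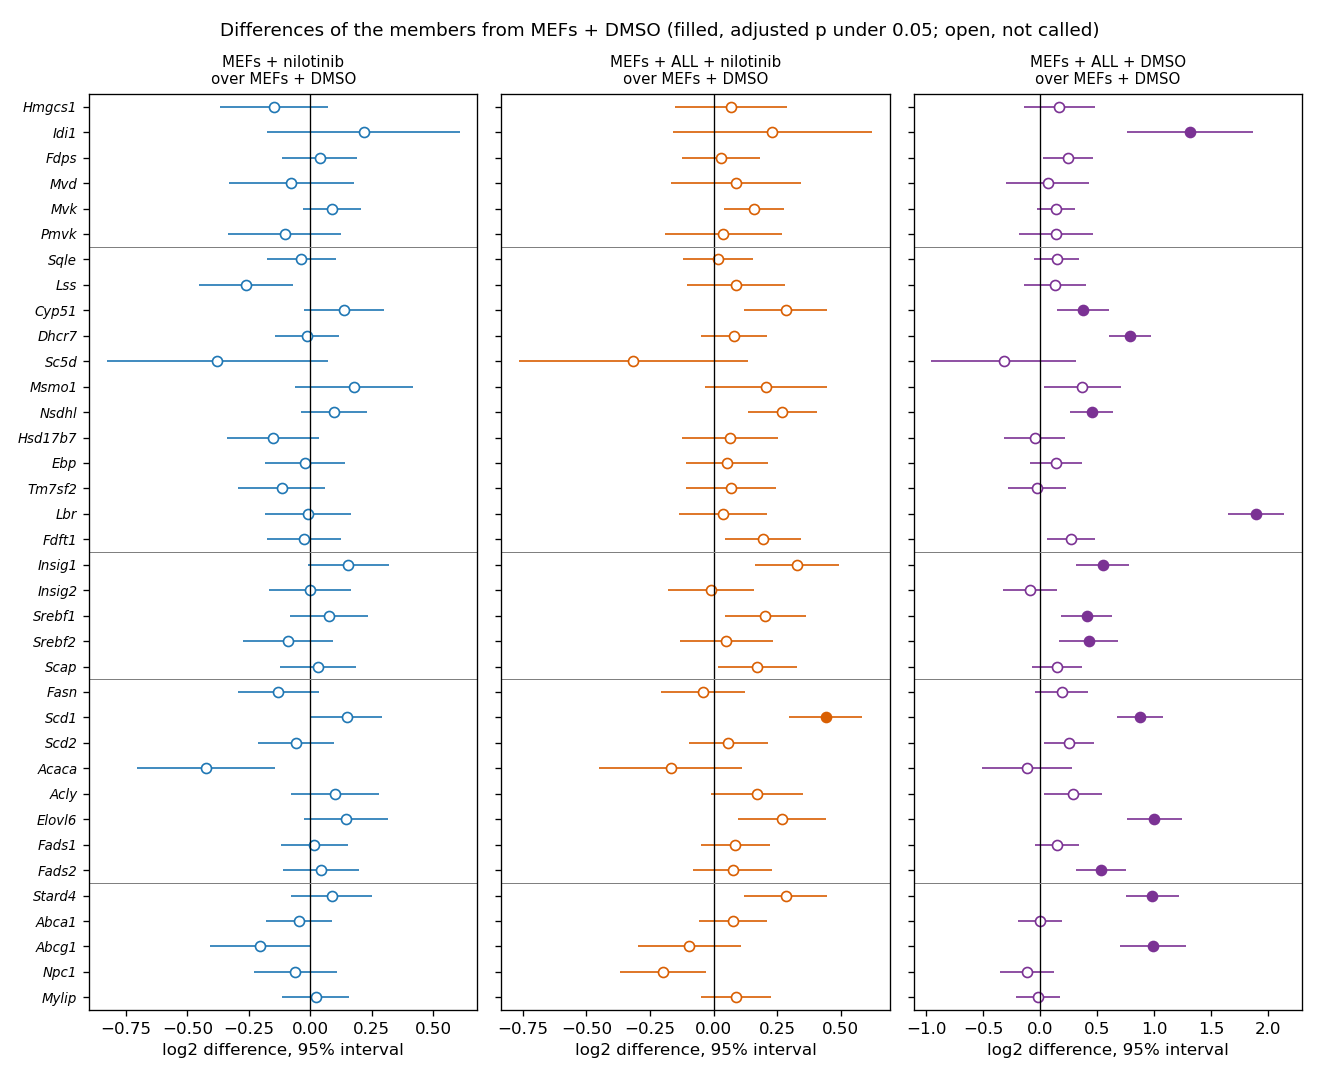
Log2 difference from MEFs + DMSO of the 36 members (rows, by role) with its 95% interval, for MEFs + nilotinib, MEFs + ALL + nilotinib and MEFs + ALL + DMSO; filled points had an adjusted p under 0.05, and the x axes differ. There is no filled point under nilotinib alone, 1 (Scd1) with ALL cells and nilotinib, and 13, all above 0, in the MEFs + ALL + DMSO array.

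The members also varied between dishes of 1 group. In MEFs + nilotinib, replicate 1 stood above the mean of replicates 2 and 3 by 0.80 for Sc5d, 0.45 for Acaca, 0.32 for Hmgcs1, 0.27 for Lss, which closes the sterol rings, and 0.24 for Hsd17b7. It stood below that mean by a difference of -0.29 for Pmvk and -0.21 for Acly, the source of cytosolic acetyl-CoA. Replicate 2 of MEFs + ALL + nilotinib was the low one for Idi1 and for Msmo1, a methylsterol oxidase, at 11.19 against 11.55 and 11.53. That array stood apart on the second principal component, with a score of 50.0, and held the lowest value of its trio for 19 of 36 members and the highest for 11. MEFs + DMSO replicate 1 held the highest value of its trio for 20 of 36 members and the lowest for 8.

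Among the members, Idi1, Fdft1 and Acaca had a second probeset each. For Idi1 it gave 0.27 in MEFs + ALL + nilotinib over MEFs + DMSO and 1.36 in the MEFs + ALL + DMSO array (adjusted p = 0.00815), close to the values above, and it was called in the test of ALL cells by drug at -1.39 (adjusted p = 0.0317), where the chosen probeset gave -1.30 (adjusted p = 0.0515). For Fdft1, squalene synthase, it gave 0.44 in the MEFs + ALL + DMSO array (adjusted p = 0.0332), where the chosen probeset gave 0.27 (adjusted p = 0.1). For Acaca it gave -0.29 under nilotinib alone against -0.42, neither called.

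A further 20 genes of these pathways were read, such as enzymes of acetate use, triglyceride synthesis and isoprenoid branches. In MEFs + ALL + nilotinib over MEFs + DMSO, 0.627% of all probesets were called and 16.2% had an unadjusted p under 0.05. Of the 20 genes, 0 were called and 7 had an unadjusted p under 0.05. Their median difference was 0.05, with 13 above 0 and 7 below, where 49.0% of all probesets were above 0. They ran from -0.24 for Ggps1, which makes geranylgeranyl diphosphate, to 0.55 for Ch25h, which makes the oxysterol 25-hydroxycholesterol (SE 0.20, adjusted p = 0.237). Ch25h read 9.01, 8.97 and 8.59 in MEFs + DMSO and 9.78, 8.94 and 9.48 in MEFs + ALL + nilotinib, so these groups overlapped. In the MEFs + ALL + DMSO array 1 was called higher, Tmem97 at 0.38, a sterol-regulated membrane protein (adjusted p = 0.0409), and 1 lower, Me1 at -0.32, the malic enzyme that supplies NADPH (adjusted p = 0.0319), which is 10.0% of the 20 beside 10.3% of all probesets. Tmem97 and Me1 each had 2 probesets, of which the one with the higher mean was read and the other was not examined. Under nilotinib alone limma called 0 of the 20, and 0% of all probesets. At an unadjusted p under 0.05 there were 0 of the 20, where 11.2% of probesets passed.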

How the data were processed

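RNA of 10 dishes was hybridised to Affymetrix Mouse Gene 1.0 ST arrays. The authors deposited log2 values per probeset, called RMA-normalized in a legend. The submitters' processing notes list Partek. RMA fits signals across arrays, so an array that differs widely can shift the others. The log base was read from the values, which run from 2.09 to 15.0. Symbols came from the platform annotation. limma 3.58.1 in R 4.3.3 (lmFit and eBayes, 4 group means, 10 arrays, two-sided) gave differences of log2 means, adjusted by Benjamini-Hochberg over 35557 probesets at a threshold of 0.05. A fold is 2 to the power of that difference. For MEFs + ALL + DMSO the single array borrows the spread of the other groups. The methods name no test for the arrays. The fit was tested on simulated data.

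The members and all lists were chosen with earlier results of these data known. Values in every array are given for 10 pivotal members, for the up to 12 called members with the largest differences, and for the leading member of each role. Alternatives were fits of the compared groups only, of 9 arrays without MEFs + ALL + DMSO, with trend and robust settings or array weights, after quantile normalization or median centring, without probesets below a mean of 6.97, with a replicate block, and without each replicate. The number of arrays limits the precision.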

Additional observations from a re-analysis of the deposited data

Results flagged for a closer look

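For 6 members the difference between dishes with and without ALL cells differed between nilotinib and DMSO. This was the limma test of that difference over all 35557 probesets. Written as the difference under nilotinib less that under DMSO, on the log2 scale, it was -1.85 for Lbr (adjusted p = 8.07e-05), -0.88 for Abcg1 (0.0146), -0.88 for Elovl6 (0.00606), -0.79 for Stard4 (0.0083), -0.69 for Dhcr7 (0.00481) and -0.58 for Scd1 (0.0211). The Scd1 call was lost without MEFs + DMSO replicate 2, MEFs + nilotinib replicate 2 or 3, or MEFs + ALL + nilotinib replicate 3, at adjusted p of 0.0544 to 0.0622, and the other 5 were called in all 9 fits that left out an array. Each rests on the 1 MEFs + ALL + DMSO array, where markers of pro-B cells, leukocytes and dividing cells were also higher, and their part in it was not tested.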

How the results depend on the processing

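In MEFs + ALL + nilotinib over MEFs + DMSO the count of members called was 1, and it was 0 in the fit of the compared groups only, 2 with trend and robust settings, 4 with array weights, 5 without dim probesets, and 0 to 1 without each replicate. The probesets called there were 223, and 12, 476, 1263, 923 and 8 to 233 in the same order. With a replicate block 0 members and 8 probesets were called. Deviations of same-numbered arrays from their group means had correlations of -0.293 to 0.241. Those of differently numbered arrays of different groups ran from -0.259 to 0.389, so the numbers were not taken as pairs. Under nilotinib alone 0 to 57 probesets were called without each replicate, the 57 without MEFs + nilotinib replicate 1. In MEFs + ALL + nilotinib over MEFs + nilotinib the 66 probesets called became 4, 117, 141 and 174 in the first 4 settings, 12 with the replicate block and 12 to 36 without each replicate. For the MEFs + ALL + DMSO array array weights called 6615 probesets, and 2137 to 4968 were called without each replicate, against 3651. Members called lower in MEFs + ALL + nilotinib over MEFs + ALL + DMSO were 8, but 5 with arrays centred on their medians and 5 to 7 without each replicate. Array weights called 2323 probesets in the test of ALL cells by drug, against 1406. Quantile normalization moved the members' median from 0.22 to 0.12 in the MEFs + ALL + DMSO array and from -0.10 to 0.003 in the test of ALL cells by drug. In MEFs + ALL + nilotinib over MEFs + DMSO, Sqle turned from 0.0171 to -0.0212 and Lbr from 0.0368 to -0.0005 under quantile normalization, and without each replicate Sqle ran from -0.0210 to 0.0544 and Lbr from -0.0160 to 0.1003, both lowest without MEFs + ALL + nilotinib replicate 3; neither was called in any fit. The causes were not tested. The members' median under nilotinib alone was -0.05 after quantile normalization and 0.008 with arrays centred, against -0.01. With quantile normalization the calls of Cyp51, Srebf1 and Srebf2 in the MEFs + ALL + DMSO array were lost, at adjusted p of 0.055 to 0.132. The Cyp51 call was also lost with arrays centred on their medians.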

Other observations

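The probeset chosen for Idi1, a gene of chromosome 13, is numbered among probesets of chromosome 2, as 8 of its 8 nearest named neighbours are, and that chosen for Acaca, of chromosome 11, among probesets of chromosome 12, as 6 of 6 are. The neighbours of their second probesets lie on the gene's own chromosome in 7 of 7 cases for Idi1 and 7 of 8 for Acaca. In both genes the 2 probesets had the same sign in each comparison with MEFs + DMSO. Elsewhere the chosen and second probesets differed in sign for Idi1 in MEFs + ALL + nilotinib over MEFs + nilotinib (0.01 and -0.03). They also did for Acaca in MEFs + ALL + nilotinib over MEFs + ALL + DMSO (-0.05 and 0.06), and none of these values was called.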
